A study of Mus musculus with 12 samples.

Results

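Collagens are secreted or membrane-bound proteins whose chains wind around each other in trimers, and they carry much of the tensile strength of the extracellular matrix. Fibrillar collagens form the banded fibres of connective tissue, type IV collagens form the sheet-like network of basement membranes, beaded filament collagens (type VI) link cells to the matrix around them, and FACIT collagens sit on the surface of fibres. In healthy liver, hepatic stellate cells and portal fibroblasts are known as the main makers of fibrillar collagen, endothelial and bile duct cells lie on or near basement membrane collagens, and hepatocytes are a known source of Col18a1, whose product is cut to release endostatin.

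The collagen genes described here are the protein-coding genes of the count table whose symbol has the form Col, a type number, the letter a and a chain number. This rule found 44 genes among 21897 protein-coding genes and 55401 genes in all, and it used no measured value. The libraries were made from livers of 12 female mice aged 15 weeks on a C57BL/6J background: 6 iTgMir483 mice, labelled over-expressors of Mir483, and 6 Control mice. iTgMir483 mice carry an extra copy of the microRNA gene Mir483 at the Rosa26 locus under a Tet-off system, in which doxycycline holds transcription down; dams of both groups drank doxycycline during pregnancy and it was withdrawn at birth, so that Mir483 was expressed from birth onwards. The line was obtained with CMV-Cre, which acts soon after fertilisation and in all tissues, and because the Cre-bearing parent was homozygous the Control littermates inherit Cre as well. The transgene was thus not limited to liver.

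Each library is 1 liver, and total counts ranged from 12244123 to 30431286. Mir483 had 0 counts in all 6 Control libraries and from 318 to 761 counts in iTgMir483 libraries. The comparison of iTgMir483 with Control used the quasi-likelihood F-test of edgeR on the 13205 genes with enough counts. Changed genes are those with a p under 0.05 after Benjamini-Hochberg adjustment over all of these genes and a fold change over 1.5. Levels are in CPM, the counts of a gene scaled to a common library size, and they are divided by the length of the longest transcript in kb where genes are compared with each other.

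The mature products of Mir483 are shown because several collagen messages hold letters that pair with their seed, the part of a microRNA that recognises its targets. The sequences are those of RefSeq, and capitals mark the seed, bases 2 to 8.
mmu-miR-483-3p: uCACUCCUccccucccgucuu
mmu-miR-483-5p: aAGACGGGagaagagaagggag

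The longest annotated 3′ untranslated region of each gene was searched for the complement of each seed, AGGAGTG for miR-483-3p and CCCGTCT for miR-483-5p. A match to miR-483-3p was present in 8 of 44 collagen genes (18.2%), and in 4 of the 24 tested ones, against 12.6% of 12098 tested genes with such a region. A match to miR-483-5p was present in Col1a1 only, or 2.27% of the 44 collagen genes and 1 of the 24 tested ones, against 3.26% of tested genes. The percentages over 44 genes include untested members, so the tested ones are the like set. Among the 8 members with a match to miR-483-3p, Col22a1, Col26a1, Col28a1 and Col6a6 had too few counts to be tested. The sites of the other members, Col14a1, Col4a3, Col5a1 and Col5a2, follow on the strand of each gene (GRCm38), with the match in capitals and the bases on either side of it.
Col14a1, chr15:55520682-55520688, plus strand: atcatttgtccAGGAGTGtgtttcagggc
Col4a3, chr1:82719257-82719263, plus strand: ctcctgagcaaAGGAGTGcggttccttcc
Col5a1, chr2:28038500-28038506, plus strand: gtttccagcagAGGAGTGtcctgggtgct
Col5a2, chr1:45374560-45374566, minus strand: ttttagtttccAGGAGTGaaaactaagat
The match is followed by an A, which lengthens the usual pairing, in Col5a2 only among these members. All 4 had a positive log2 fold change: 1.20 for Col14a1, 2.16 for Col4a3, 0.58 for Col5a1 and 0.61 for Col5a2. So did 22 of the 24 tested collagen genes, so the shared sign does not set the genes with a match apart. A match is a description of letters and not a measured site.

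Levels of the collagen genes in Control liver spanned a wide range. Col18a1 stood far above the others at 184.5 ± 24.7 CPM per kb (SD, n = 6), and every Control library held more of it than of any other collagen per kb. Col14a1, a FACIT collagen found on fibres, followed at 8.30 ± 1.46 CPM per kb, then Col4a1 at 5.64 ± 0.896 and Col4a2 at 3.70 ± 0.270, the chains of the common basement membrane network. Col5a3 (3.64 ± 1.42), Col13a1 (3.63 ± 0.814), Col3a1 (3.31 ± 1.62), Col6a1 (3.16 ± 0.602) and Col1a2 (2.73 ± 0.859) lay close behind. Among the neighbours in this order down to Col15a1, only Col18a1 over Col14a1 and Col4a1 over Col4a2 had no overlap between the Control libraries; the ranges of the other neighbours overlapped. Col1a1, the major chain of type I collagen, was at 0.840 ± 0.499 CPM per kb.

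Of the summed collagen CPM, Col18a1 made up 79.1% ± 2.09 (SD, n = 6) in Control and 71.9% ± 4.12 in iTgMir483 livers. The other 43 collagen genes summed to 273.2 ± 44.6 CPM in Control livers, with libraries from 225.8 to 353.7. In iTgMir483 livers they summed to 452.0 ± 82.1 CPM, with libraries from 343.7 to 550.6, so that the ranges of the groups overlapped slightly.

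**Figure D1:**
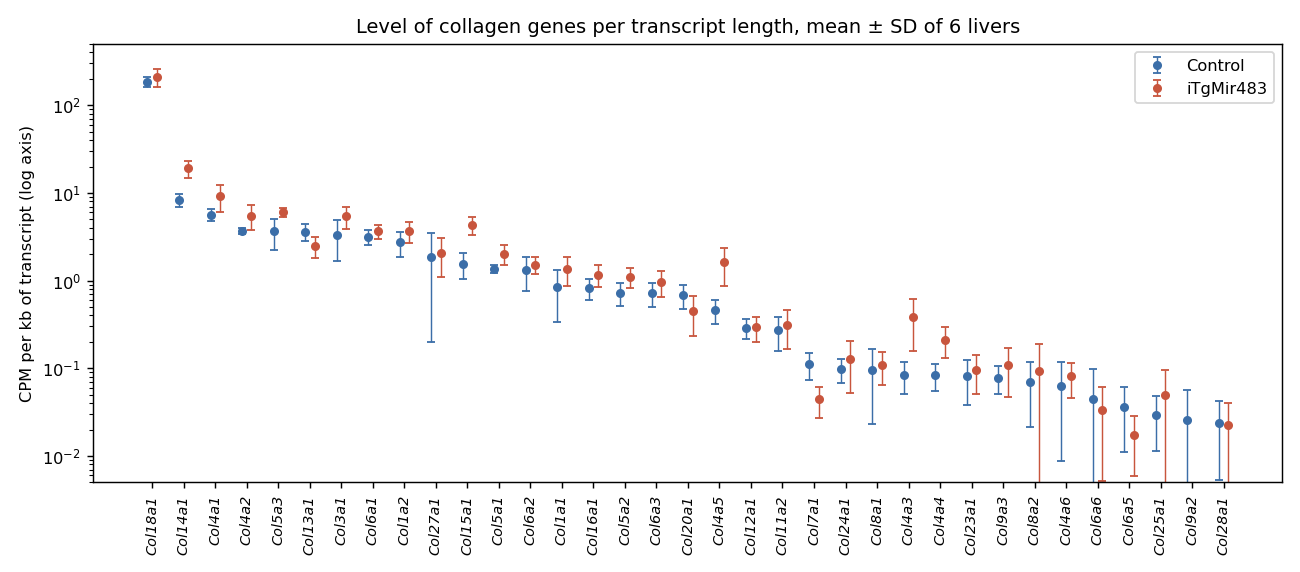
Level of each collagen gene in CPM per kb of its longest transcript on a log axis, as mean ± SD of 6 Control livers (blue) and 6 iTgMir483 livers (red), ordered by the Control level; error bars that reach below the axis are clipped. The 35 genes with a Control level over 0.02 CPM per kb are plotted, and Col18a1 lies at 184.5 in Control livers against 8.30 for Col14a1, the next gene.

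Of the 44 collagen genes, 24 passed the count filter and were tested, and 8 of these (33.3%) rose in iTgMir483 livers: Col4a1, Col4a3, Col4a4, Col4a5, Col5a2, Col5a3, Col14a1 and Col15a1. Over all 13205 tested genes, 8.41% were called higher and 2.73% lower. The filter asks for enough counts in as many libraries as 1 group holds, so a gene that is high in 1 group only can pass it. No collagen gene was called lower with edgeR or with limma-voom, 1 (Col13a1) was lower at an unadjusted p under 0.05 with edgeR, and DESeq2, which tests more low genes, called 1 lower (Col7a1). Col4a2 and Col5a1 passed the adjusted p but not the fold of 1.5. The median log2 fold change of the tested members was 0.55, against 0.0058 over all tested genes, and 22 of the 24 were above 0, one of which, Col12a1, was at 0.00 and took the opposite sign with size-factor (RLE) scaling. Without both libraries numbered 1, 14 collagen genes were called higher, the 8 above among them. In bulk liver, fewer or more cells of a type and less or more RNA per cell cannot be told apart.

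**Figure D2:**
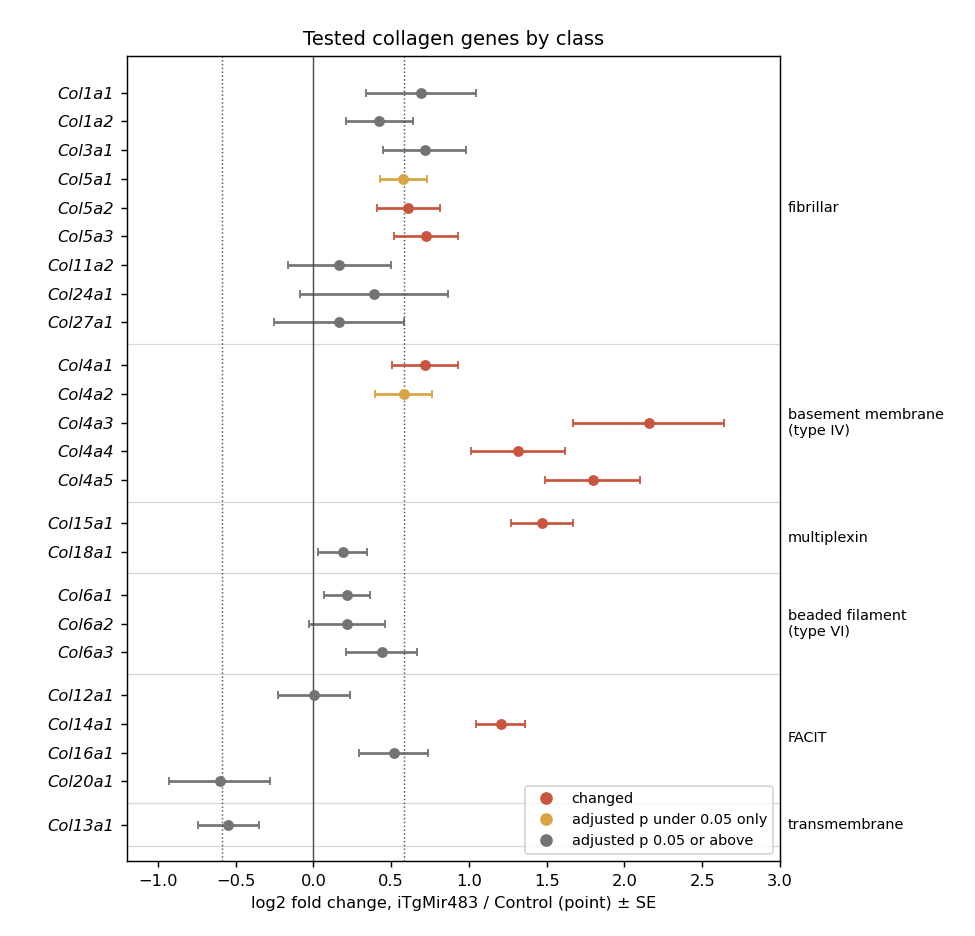
Log2 fold change of iTgMir483 over Control with its standard error (horizontal axis) for the 24 tested collagen genes, grouped by class; red points are changed genes, yellow points passed the adjusted p only and grey points did not pass, and dotted lines mark a fold of 1.5. Col4a3, Col4a5, Col15a1, Col4a4 and Col14a1 lie farthest to the right, and Col13a1 and Col20a1 are the only points to the left of 0.

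Basement membrane collagens were the class with the most called members: of 6 genes, 5 were tested and 4 rose, with a median log2 fold change of 1.32. By comparison, 8.41% of all tested genes were called higher. Col4a1 and Col4a2 encode the chains of the network present in nearly all basement membranes, and Col4a3, Col4a4 and Col4a5 those of the network best known from kidney, lung and cochlea. The 3 genes of the second network were expressed at a low level and had larger fitted fold changes than Col4a1, a difference that was not tested.

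Col4a5 was measured in Control livers at 1.83 CPM at the lowest, 2.92 at the median and 4.42 at the highest. In iTgMir483 livers it was at 3.93, 9.82 and 16.0 CPM. All iTgMir483 livers but replicate 1 lay above every Control, and Col4a5 rose by 1.80 ± 0.31 on the log2 scale (SE; adjusted p = 0.00188 in the edgeR test). Col4a3 ranged from 0.314 to 1.06 CPM (median 0.737) in Control and from 0.364 to 5.42 CPM (median 3.98) in iTgMir483 livers, where again replicate 1 alone lay among the Controls. Its log2 fold change was 2.16 ± 0.49 (adjusted p = 0.00790, edgeR), from 5 to 31 counts in Control and 5 to 70 in iTgMir483 libraries, and it missed the threshold with limma-voom (adjusted p = 0.0686). Exons of Col4a3 overlap those of the opposite-strand gene C430014B12Rik, which had at most 26 counts. Col4a4 ranged from 0.457 to 1.21 CPM (median 0.784) in Control and from 1.09 to 2.88 CPM (median 2.42) in iTgMir483 livers. Replicates 1 and 5 of the iTgMir483 livers overlapped with Control, and the log2 fold change of Col4a4 was 1.32 ± 0.30 (adjusted p = 0.00889, edgeR).

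Col4a1 was measured at 28.4 CPM at the lowest, 37.7 at the median and 46.4 at the highest in Control livers, against 33.3, 71.4 and 81.9 CPM in iTgMir483 livers. The iTgMir483 livers fell apart: replicates 1 and 2 (33.3 and 36.0 CPM) were within the Control range, and replicates 3 to 6 (70.9 to 81.9 CPM) were above it. Its log2 fold change was 0.72 ± 0.21 (adjusted p = 0.0301, edgeR). The call of Col4a1 was lost when any one of 8 libraries was left out, Control replicates 1, 2, 4 and 6 and iTgMir483 replicates 3, 4, 5 and 6, with an adjusted p of at most 0.0674, and with limma-voom (adjusted p = 0.0562).
Col4a2 had the same split, with replicates 1 and 2 of the iTgMir483 livers at 21.8 and 21.6 CPM, below the Control range of 22.6 to 27.2 CPM (median 23.2), and replicates 3 to 6 at 35.5 to 47.7 CPM (group median 38.8). Its log2 fold change was 0.58 ± 0.18 (adjusted p = 0.0408, edgeR), just under the fold of 1.5, and it was called higher in 5 of 19 alternatives. Exons of Col4a1 and Col4a2 overlap on opposite strands, so that a share of their reads could be counted for either gene if strand was not used. Col4a6, the partner of Col4a5, had 1 to 15 counts per library and was not tested.

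Ratios of levels per kb describe how the chains moved against each other. Col4a1 to Col4a2 had a median of 1.57 in Control and 1.65 in iTgMir483 livers. Col4a5 to Col4a1 ranged from 0.0479 to 0.114 in Control and from 0.112 to 0.222 in iTgMir483 livers, with the ranges meeting at their ends. Col4a3, Col4a4 and Col4a5 together made up 4.41% to 8.32% (median 6.55%) of the type IV level in Control livers and 7.83% to 18.1% (median 14.0%) in iTgMir483 livers.

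Type IV genes lie in head-to-head pairs, and promoters of this class are shown because it holds 4 of the 8 changed genes and because some paired starts share a window. The annotated starts of Col4a1 and Col4a2 are 21 bases apart on chromosome 8, those of Col4a3 and Col4a4 72 bases apart on chromosome 1, and those of Col4a5 and Col4a6 1309 bases apart on chromosome X. The windows below run from 250 bases before to 50 after the start on the strand of the gene (RefSeq, GRCm38.p6), and capitals mark CCAAT and the GC box GGGCGG on either strand. The windows of Col4a1 and Col4a4 also hold the start of the partner gene.
Col4a1, chr8:11312777-11313076, minus strand: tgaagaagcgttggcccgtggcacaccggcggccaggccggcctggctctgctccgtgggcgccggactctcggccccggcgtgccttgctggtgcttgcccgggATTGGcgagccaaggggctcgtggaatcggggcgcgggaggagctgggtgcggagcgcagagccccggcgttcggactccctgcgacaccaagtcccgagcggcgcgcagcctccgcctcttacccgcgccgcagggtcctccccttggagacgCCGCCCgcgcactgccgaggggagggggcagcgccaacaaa
Col4a4, chr1:82586800-82587099, minus strand: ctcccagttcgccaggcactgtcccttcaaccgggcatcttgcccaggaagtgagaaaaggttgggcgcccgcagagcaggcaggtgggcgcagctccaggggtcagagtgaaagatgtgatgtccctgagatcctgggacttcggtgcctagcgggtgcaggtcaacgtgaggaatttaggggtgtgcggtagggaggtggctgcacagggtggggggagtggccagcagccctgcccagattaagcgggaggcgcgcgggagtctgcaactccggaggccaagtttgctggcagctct
Col4a5, chrX:141475169-141475468, plus strand: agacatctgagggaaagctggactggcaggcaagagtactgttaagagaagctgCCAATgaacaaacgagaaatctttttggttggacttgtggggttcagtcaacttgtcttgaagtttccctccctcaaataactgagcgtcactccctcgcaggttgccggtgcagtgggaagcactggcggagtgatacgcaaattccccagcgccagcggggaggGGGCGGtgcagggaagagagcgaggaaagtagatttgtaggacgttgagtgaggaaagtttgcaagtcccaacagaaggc
The Col4a1 and Col4a5 windows hold both motifs, and neither is in the letters of the Col4a4 window. RefSeq windows matched 35 of the 44 members (38 windows): the GC box was in 60.5% of them and in 35.7% of all 32851 windows, and CCAAT in 34.2% and 37.4%. The median GC content was 59.8% in member windows and 52.7% in all. A match in these windows is a description of letters and not a measured binding site.

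Col14a1 and Col15a1 were the 2 tested collagen genes whose iTgMir483 libraries all lay above all Control libraries, which was so for 5.09% of all tested genes. Col15a1 encodes a multiplexin, a basement membrane proteoglycan related to Col18a1. It was measured at 6.02 CPM at the lowest, 7.14 at the median and 13.1 at the highest in Control livers, and at 15.3, 22.6 and 28.2 CPM in iTgMir483 livers. Control replicate 2 stood alone at 13.1 CPM, with the other Controls at no more than 7.95, and still lay below every iTgMir483 liver. The log2 fold change of Col15a1 was 1.47 ± 0.20 (adjusted p = 0.000469, edgeR). Col18a1, the other multiplexin, did not pass the test. It was at 864, 1009 and 1282 CPM (lowest, median and highest) in Control and at 826, 1142 and 1652 CPM in iTgMir483 livers, with a log2 fold change of 0.19 ± 0.16 (adjusted p = 0.432, edgeR) and groups that overlapped throughout.

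FACIT collagens were represented by 4 tested genes of 9, of which Col14a1 rose, where 8.41% of all tested genes were called higher. Col14a1 was at 39.4, 53.5 and 67.1 CPM (lowest, median and highest) in Control and at 78.3, 123.4 and 158.8 CPM in iTgMir483 livers. Replicate 1 was the lowest of the iTgMir483 livers, and the groups did not overlap. Its log2 fold change was 1.20 ± 0.16 (adjusted p = 0.000391, edgeR). Col16a1 had a log2 fold change of 0.52 (adjusted p = 0.117), Col12a1 of 0.00 (adjusted p = 0.992) and Col20a1 of -0.60 (adjusted p = 0.209) in the same edgeR fit. Col20a1 overlaps BX649560.1 on the same strand, which had up to 147 counts, so its counts are uncertain. The untested members Col9a1, Col9a2, Col9a3, Col19a1 and Col22a1 had at most 14 counts in any library. Col9a2 had 7 counts in all Control libraries together, 4 of them in replicate 1, and 0 in iTgMir483 libraries. Col22a1 had 7 in Control and 26 in iTgMir483 libraries, 14 of them in replicate 4. Without the filter neither gene passed (adjusted p = 0.121 for Col9a2 and 0.134 for Col22a1, edgeR).

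**Figure D3:**
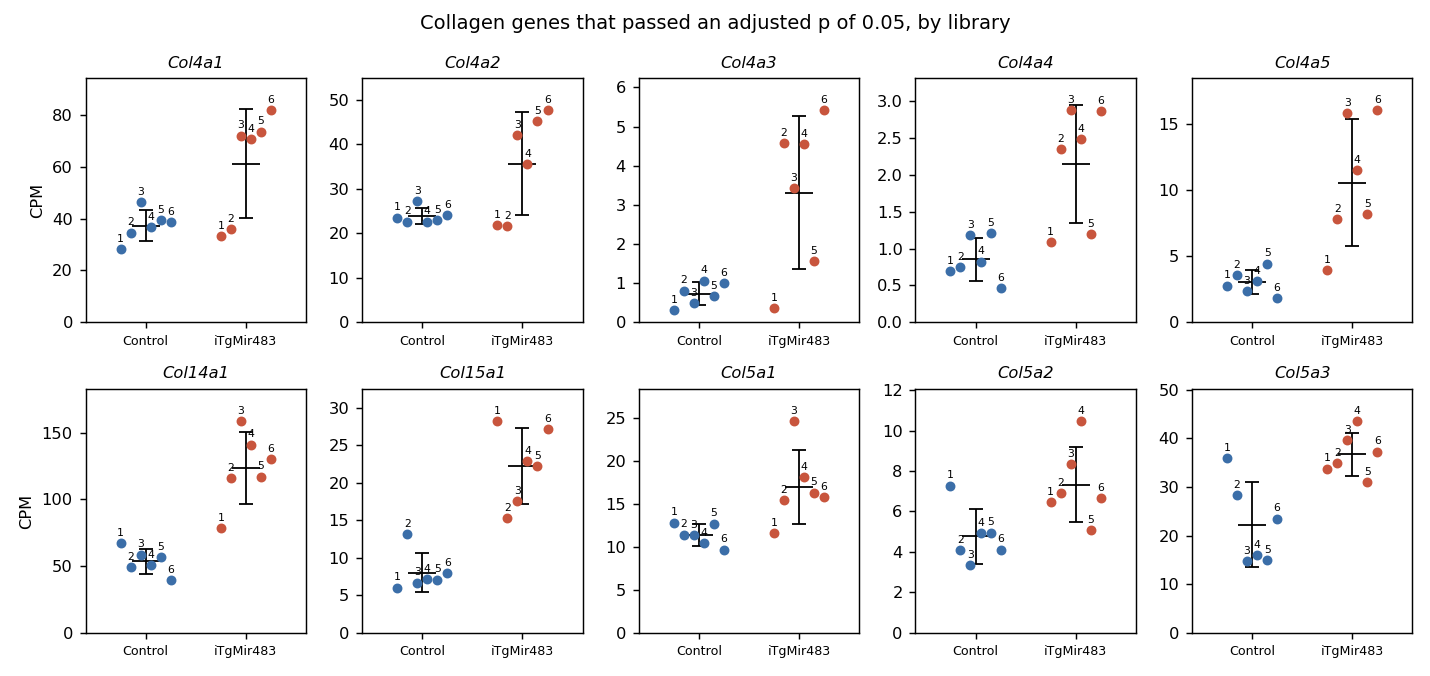
CPM in each library (numbered points) for the 10 collagen genes with an adjusted p under 0.05, with Control in blue and iTgMir483 in red, and the mean ± SD in black. For Col4a1 and Col4a2, iTgMir483 replicates 1 and 2 sit within or below the Control range and replicates 3 to 6 above it, and for Col14a1 and Col15a1 all iTgMir483 points lie above all Control points.

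Of 11 fibrillar collagen genes, 9 were tested, with a median log2 fold change of 0.58 in the class and all 9 values above 0. Among these 9 genes 2 rose, Col5a2 and Col5a3, where 8.41% of all tested genes were called higher. Col5a2 and Col5a3 encode chains of type V collagen, which joins fibres of type I collagen and is known to limit their width. Col5a3 was at 14.7, 19.7 and 36.0 CPM (lowest, median and highest) in Control and at 31.1, 36.1 and 43.6 CPM in iTgMir483 livers. The iTgMir483 livers were close together and overlapped only with Control replicate 1. The log2 fold change of Col5a3 was 0.72 ± 0.21 (adjusted p = 0.0247, edgeR), and the call was lost without Control replicate 4 (adjusted p = 0.0586) or Control replicate 5 (adjusted p = 0.0512). Col5a2 was at 3.35, 4.52 and 7.28 CPM in Control and at 5.08, 6.79 and 10.5 CPM in iTgMir483 livers, again with Control replicate 1 the only Control within the iTgMir483 range. Its log2 fold change was 0.61 ± 0.20 (adjusted p = 0.0486, edgeR); the call was lost in 13 of 19 alternatives with these thresholds, among them leaving out any library other than Control replicate 1 and iTgMir483 replicate 5, with adjusted p up to 0.101. Col5a1 was at 9.69, 11.4 and 12.9 CPM in Control and at 11.6, 16.1 and 24.7 CPM in iTgMir483 livers, where all but replicate 1 were above every Control. Its log2 fold change of 0.58 ± 0.15 (adjusted p = 0.0169, edgeR) was just under the fold of 1.5, and it was called higher in 8 of 19 alternatives, with log2 fold changes of 0.44 to 0.70 over all 19.

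The major fibre-forming genes Col1a1, Col1a2 and Col3a1 did not pass the test. Col1a1 was at 1.37, 4.29 and 10.04 CPM (lowest, median and highest) in Control and at 4.91, 7.44 and 12.0 CPM in iTgMir483 livers, a log2 fold change of 0.69 ± 0.35 (adjusted p = 0.189, edgeR). Col1a2 was at 8.87, 13.8 and 20.3 CPM in Control and at 11.8, 20.6 and 25.6 CPM in iTgMir483 livers, with a log2 fold change of 0.42 ± 0.22 (adjusted p = 0.187, edgeR). Col3a1 was at 9.05, 15.5 and 35.1 CPM in Control and at 19.2, 28.6 and 44.6 CPM in iTgMir483 livers, with a log2 fold change of 0.72 ± 0.27 (adjusted p = 0.0759, edgeR). Among tested fibrillar genes, Control replicate 1 was the highest Control for Col1a1, Col3a1, Col5a1, Col5a2, Col5a3, Col11a2 and Col27a1, and it decided several of these values. In other classes this library was the highest Control for Col6a2, Col6a3, Col14a1, Col16a1 and Col18a1. Without it, Col1a1 (log2 fold change 1.01, adjusted p = 0.0406, edgeR), Col3a1 (adjusted p = 0.00625), Col5a1 (0.61, adjusted p = 0.0175) and Col27a1 (0.81, adjusted p = 0.0473) were called higher. Col3a1 also passed with limma-voom (adjusted p = 0.0498).

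The remaining fibrillar genes were Col27a1, with a log2 fold change of 0.16 (adjusted p = 0.822, edgeR), Col11a2 with 0.17 (adjusted p = 0.766) and Col24a1 with 0.39 (adjusted p = 0.605). Col27a1 was at 39.6 CPM in Control replicate 1 and at 6.83 to 11.7 CPM in the other Controls. Within the iTgMir483 group it was likewise highest in replicate 1, at 29.2 CPM, so that the sign of its change turned without that library (-0.11). Signs turned as well for Col11a2 without iTgMir483 replicate 4 (-0.09) and for Col24a1 with limma-voom (-0.16). Col11a1 had 0 counts in every library, and Col2a1 had 1 count in all.

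**Figure D4:**
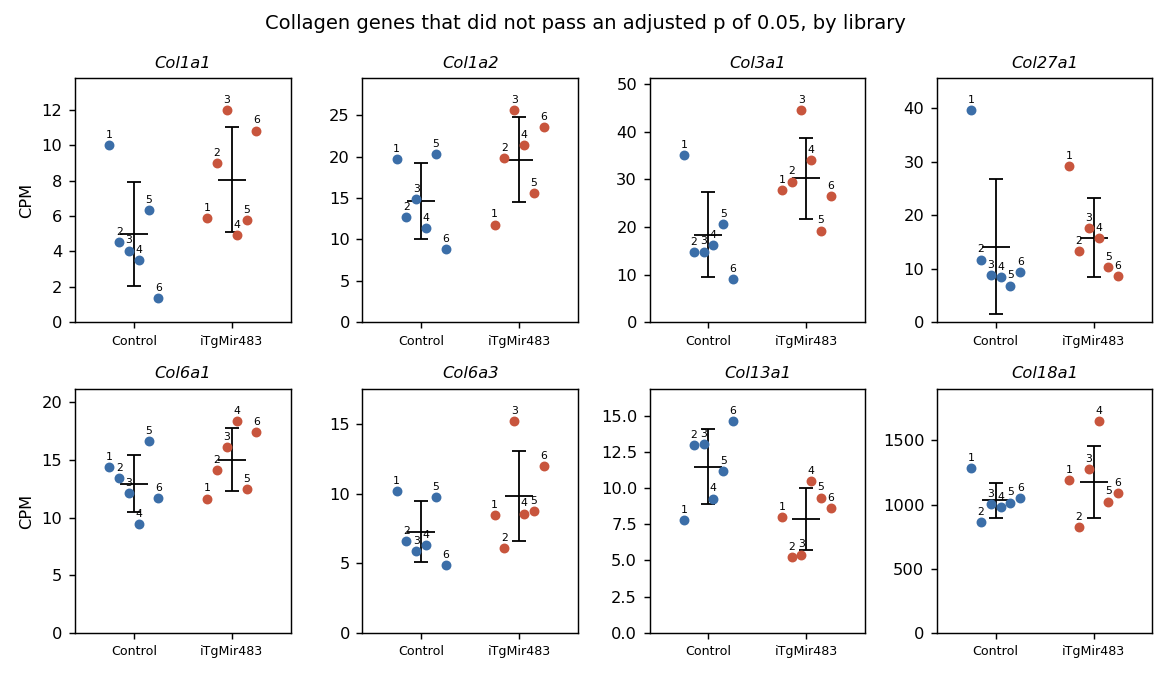
CPM in each library (numbered points) for 8 collagen genes with an adjusted p of at least 0.05, with Control in blue and iTgMir483 in red, and the mean ± SD in black. Control replicate 1 is the highest Control for Col1a1, Col3a1, Col27a1, Col6a3 and Col18a1, at 39.6 CPM for Col27a1 against at most 11.7 CPM in the others.

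Beaded filament collagens did not pass the test in any of their 3 tested genes. Col6a1 was at 9.40, 12.8 and 16.6 CPM (lowest, median and highest) in Control and at 11.6, 15.1 and 18.4 CPM in iTgMir483 livers, with a log2 fold change of 0.22 ± 0.15 (adjusted p = 0.330, edgeR). Col6a2 was at 3.47, 5.29 and 10.2 CPM in Control and at 5.33, 6.90 and 9.06 CPM in iTgMir483 livers, with a log2 fold change of 0.22 ± 0.24 (adjusted p = 0.570, edgeR). The groups overlapped for both genes. Col6a3 had a log2 fold change of 0.44 ± 0.23 (adjusted p = 0.197, edgeR). Col6a4, Col6a5 and Col6a6 were not tested, with at most 21 counts in any library.

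Among the remaining classes, 1 gene had enough counts to be tested. Col13a1, a transmembrane collagen, was at 7.78, 12.1 and 14.6 CPM (lowest, median and highest) in Control and at 5.21, 8.30 and 10.5 CPM in iTgMir483 livers. The groups overlapped, and its log2 fold change was -0.55 ± 0.20 (adjusted p = 0.0667, edgeR). It passed without Control replicate 1 (adjusted p = 0.0310) or without iTgMir483 replicate 4 (adjusted p = 0.0383). Col17a1, Col23a1 and Col25a1, the other transmembrane collagens, had at most 16 counts in any library. Of the network collagens, Col8a1 and Col8a2 had at most 20 counts and Col10a1 had 0 in every library. Col26a1 had 0 counts and Col28a1 at most 3.

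Col7a1, which forms the anchoring fibrils that tie epithelium to stroma, was below the count filter. Its counts were 25, 23, 12, 27, 10 and 9 in Control replicates 1 to 6 and 7, 5, 6, 9, 3 and 5 in iTgMir483 replicates 1 to 6. In CPM the groups did not overlap, at 0.670 to 1.57 in Control and 0.188 to 0.659 in iTgMir483 livers; 2.83% of tested genes had all iTgMir483 libraries below all Control libraries. Without the filter its log2 fold change was -1.34 (adjusted p = 0.0221, edgeR), and it was also called lower with DESeq2 (-1.36, adjusted p = 0.00456). Of the 20 untested collagen genes, 3 were at 0 in all libraries and another 5 had at most 3 counts in any library, and Col7a1 had the highest count of the 20, at 27.

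The livers of the iTgMir483 group were not alike in their collagen genes. Replicates 3 and 4 lay above every Control in all 8 changed genes, replicate 6 in 7, and replicates 2 and 5 in 5. Replicate 1 did so in 2, Col14a1 and Col15a1, and it was the lowest of the group in 5 of the 8. Without that library 10 collagen genes were called higher, with Col4a2, Col5a1 and Col16a1 gained and Col5a2 lost. Under the alternatives run, Col4a4, Col4a5, Col14a1 and Col15a1 kept their call wherever they were tested, other than Col4a4 in a test against the fold of 1.5 itself.

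Genes that modify, fold, cleave or bind collagen moved less uniformly. Of 47 such genes, 37 were tested, 10 rose and 2 fell, with a median log2 fold change of 0.16. Over all tested genes, 8.41% were called higher and 2.73% lower. Among enzymes that hydroxylate collagen, P4ha1, the prolyl hydroxylase needed for stable trimers, had a log2 fold change of -0.05 ± 0.26 (adjusted p = 0.920, edgeR). The sign of P4ha1 turned without Control replicate 2 (0.03), Control replicate 4 (0.10) or iTgMir483 replicate 2 (0.09). Its relative P4ha2 fell by 0.82 on the log2 scale (adjusted p = 0.0108), from 6.23 to 9.66 CPM in Control to 2.64 to 6.77 CPM in iTgMir483 livers. P3h2 (0.71), P3h3 (0.68) and Plod2 (0.96), which hydroxylate other prolines and lysines, rose. Plod2 encodes the lysyl hydroxylase of the chain ends, where crosslinks form, and its call was lost without Control replicate 4 (adjusted p = 0.0598) or iTgMir483 replicate 6 (adjusted p = 0.0538).

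Of the chaperones, Serpinh1 (also known as Hsp47), which binds newly made collagen in the endoplasmic reticulum, rose from 5.58 to 9.10 CPM in Control livers to 9.21 to 14.3 CPM in iTgMir483 livers, with a log2 fold change of 0.62 ± 0.15 (adjusted p = 0.00985, edgeR). All its iTgMir483 libraries lay above all Control libraries, which was so for 5.09% of all tested genes. However, its fold was under 1.5 without Control replicate 2 or 6 or iTgMir483 replicate 3, at log2 fold changes of 0.57, 0.56 and 0.52. Fkbp14 (0.60, adjusted p = 0.0462) and Creb3l1 (0.83, adjusted p = 0.0491), a transcription factor for collagen genes, were also called higher, but the calls were lost in 15 and 14 of 19 alternatives. Pcolce, which speeds removal of the end propeptide, rose by 0.79 on the log2 scale (adjusted p = 0.0107). Loxl2, a crosslinking oxidase, rose by 0.83 (adjusted p = 0.0281), from 1.13 to 2.28 CPM in Control to 1.67 to 4.01 CPM in iTgMir483 livers. Its call was lost without Control replicate 2, 4 or 6 or iTgMir483 replicate 3 or 5, with adjusted p up to 0.0691. Lox, the founding member of that family, had 2 to 12 counts per library and was not tested.

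Receptors of collagen went in both directions. Adgrg1, a receptor for type III collagen, showed the largest change among these 37 genes, from 4.52 to 6.96 CPM in Control to 15.8 to 35.8 CPM in iTgMir483 livers, with a log2 fold change of 2.15 ± 0.20 (adjusted p = 2.1e-05, edgeR). All iTgMir483 libraries lay above all Control libraries for Adgrg1, which was so for 5.09% of all tested genes. The discoidin receptor Ddr1, which binds fibrillar and type IV collagen, rose with a log2 fold change of 1.10 ± 0.27 (adjusted p = 0.0115, edgeR), while the integrin chain Itga10 fell by 0.71 (adjusted p = 0.0230), from 1.54 to 2.46 CPM to 0.851 to 1.68 CPM. The call of Itga10 was lost with no filter (adjusted p = 0.0621), without Control replicate 4 (adjusted p = 0.0618) and without both libraries numbered 1 (adjusted p = 0.0601).

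**Figure D5:**
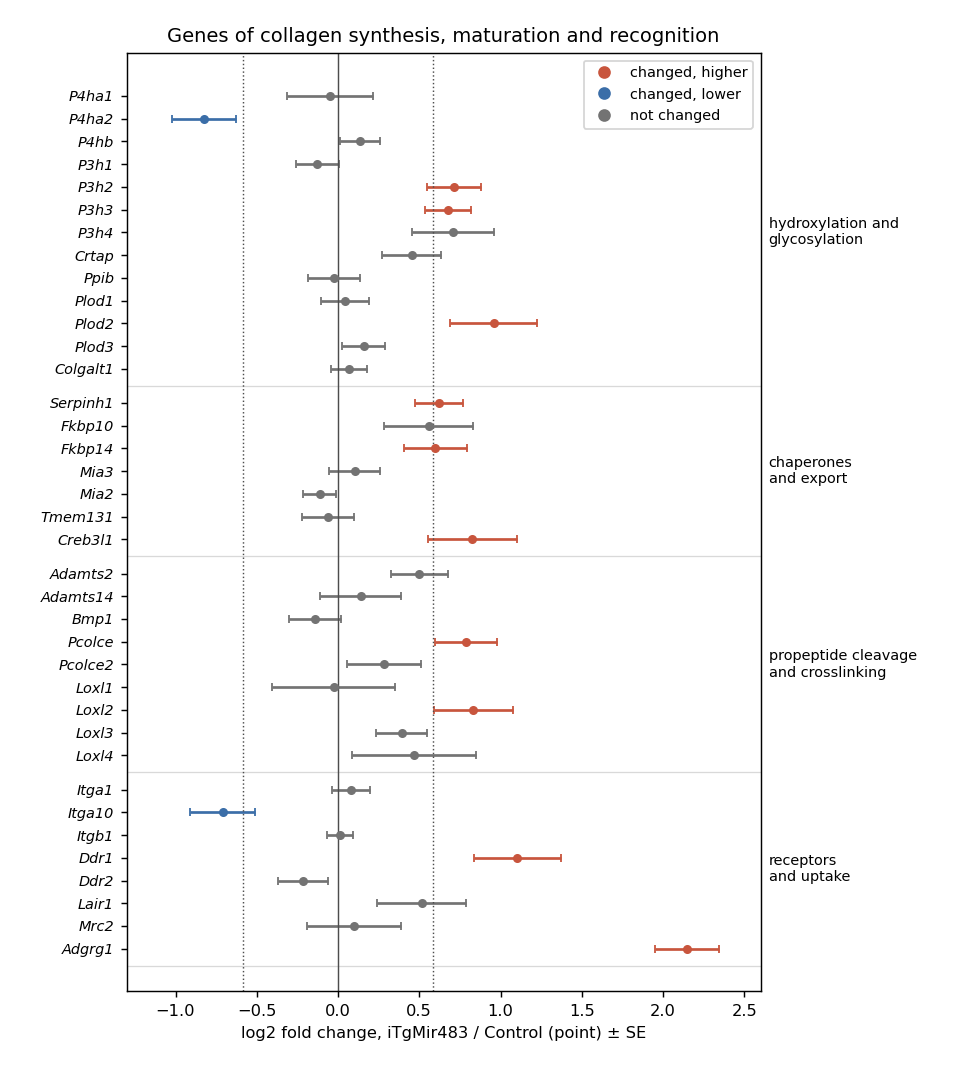
Log2 fold change of iTgMir483 over Control with its standard error (horizontal axis) for the 37 tested genes of collagen synthesis, maturation and recognition; red points rose, blue points fell, grey points were not called changed, and dotted lines mark a fold of 1.5. Adgrg1 lies at 2.15, and P4ha2 (-0.82) and Itga10 (-0.71) are the genes that fell.

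Markers of the cells that make or border on collagen were measured beside these results, as summed CPM per library. For comparison, 8.41% of all tested genes were called higher and 2.73% lower. For stellate cells, 0 of 11 markers were called changed, and their sum was 418 to 517 CPM in Control and 461 to 564 CPM in iTgMir483 livers, although Cygb and Rgs5 passed the adjusted p alone. Rgs5 was at 31.8 to 48.5 CPM in Control and 50.5 to 62.0 CPM in iTgMir483 livers. It was the 1 stellate marker with all iTgMir483 libraries above all Control libraries, which was so for 5.09% of all tested genes. For myofibroblasts, 0 of 5 tested markers were called, with sums of 239.5 to 329.9 CPM and 256 to 338 CPM, and Cthrc1 had 0 counts in all libraries. Dcn made up most of these sums, at 186 to 271 CPM in Control and 217.5 to 278 CPM in iTgMir483 livers. For portal fibroblasts, 2 of 7 tested markers rose, Cd34 and Entpd2, with sums of 12.2 to 33.1 CPM and 22.8 to 35.9 CPM. Of these 7 markers, 4 had a log2 fold change above 0 and the rest were below it. The ranges of the sums overlapped for all of these cell types.

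Of bile duct markers, 3 of 6 tested rose, Krt7, Epcam and Spp1, where 8.41% of all tested genes were called higher. The bile duct sums, 39.1 to 63.6 CPM in Control and 75.4 to 116 CPM in iTgMir483 livers, did not overlap. Much of the difference between these sums lay in Spp1, at 16.2 to 38.0 CPM in Control and 52.0 to 77.1 CPM in iTgMir483 livers. Of macrophage markers, 7 of 8 rose (Adgre1, Cd68, Clec4f, Marco, Csf1r, Cd5l and Timd4), with sums of 288 to 414 CPM and 436 to 1255 CPM, the highest in iTgMir483 replicate 4. For sinusoidal endothelium, 0 of 9 were called, with sums of 445.6 to 527 CPM and 386 to 520.3 CPM, although Pecam1 passed the adjusted p alone (log2 fold change 0.42, adjusted p = 0.0239, edgeR). Smooth muscle (0 of 3 tested) and mesothelium (0 of 3 tested) had overlapping sums, 95.2 to 145 CPM against 103 to 190.2 CPM and 2.10 to 7.30 CPM against 2.71 to 8.28 CPM. Mylk made up most of the smooth muscle sums. Of 7 hepatocyte markers, Cps1 and Ass1 fell, where 2.73% of all tested genes were called lower. The hepatocyte sums were 129226 to 178355 CPM in Control and 75897 to 142982 CPM in iTgMir483 livers. Alb was the largest part of the hepatocyte sums. No adipocyte marker had enough counts to be tested; their sums were at most 2.34 CPM, and Lep was at 0 in every library. The part of these cell types in the collagen values was not tested.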

How the data were processed

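Liver RNA-seq of 12 mice was analysed from the deposited table of raw counts per gene. The authors' methods name a stranded mRNA library kit and the sample labels an RNA library kit of the same maker with no word on strand. The authors used STAR for alignment of paired-end reads (GRCm38) and for counts over Ensembl genes; which strand setting was used is not given in the sources used here, so overlapping genes are uncertain. Groups and replicate numbers came from the sample titles. All libraries belonged to 1 sequencing pool. The table held 0 rows naming no gene. Symbols came from GENCODE M21 (55141 of 55401 identifiers matched).

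Genes were filtered with filterByExpr, scaled by TMM and compared with edgeR 4.0.16 (quasi-likelihood F-test) and limma 3.58.1 in R 4.3.3, without covariates; p-values were adjusted by the Benjamini-Hochberg method over all 13205 genes. Each standard error is the absolute log2 fold change over the root of its F statistic. Alternatives were RLE scaling, a minimum of 10 counts in every sample, no filter, DESeq2 1.42.0, limma-voom, a replicate block, a test against the fold of 1.5, no fold threshold, and leaving out each library or both libraries numbered 1. The fit was tested on simulated data. No 2 libraries of a group were the same within sampling noise (smallest chi-square per gene 14.3). The reads carry no molecular identifiers, so low counts carry more than counting error.

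The text names every collagen gene, every changed gene of the pathway lists with P4ha1, Serpinh1, Lox and Loxl2, and the changed markers; Cygb, Rgs5, Pecam1, Cthrc1 and Lep were added after their values were seen. The members and lists were chosen with earlier results of these data known.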

Additional observations from a re-analysis of the deposited data

Results flagged for a closer look

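In 3 of the 74 groups of 6 livers examined (37 named genes in each group), 1 library stood apart from the other 5 by Dixon's criterion, where chance alone gives about 1 group in 20, or 3.7. Col27a1 was at 39.6 CPM in Control replicate 1 against 6.83 to 11.7 CPM in the other Controls (gap over range 0.852). Col15a1 was at 13.1 CPM in Control replicate 2 against 6.02 to 7.95 CPM (0.728). Col4a2 was at 27.2 CPM in Control replicate 3 against 22.6 to 24.1 CPM (0.665).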

How the results depend on the processing

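The count of 8 collagen genes higher was 7 or 8 with RLE scaling, either other count filter, DESeq2 or limma-voom, and 10 with no fold threshold. It was 3 in a test against the fold of 1.5 (Col4a5, Col14a1 and Col15a1), 14 without both libraries numbered 1, and 5 to 11 when 1 library was left out. The genes called were not always the same. With at least 10 counts in every sample 6 of the 8 were shared, with Col4a3 and Col4a4 not tested and Col4a2 and Col5a1 gained. With limma-voom 6 were shared as well, with Col4a1 and Col4a3 lost and Col3a1 gained. The count of 0 lower became 1 with no filter and with DESeq2 (Col7a1 in both), 1 without both libraries numbered 1 (Col13a1), and 0 to 2 when 1 library was left out; Col7a1 passed the filter only in some of these. The 10 pathway genes higher became 1 in the test against the fold, and 6 to 11 with 1 library left out. The 2 lower became 1 with no filter, 0 in the test against the fold, 1 without both libraries numbered 1, and 1 to 2 with 1 library left out. The log2 fold change of Col12a1 turned to -0.0082 with RLE scaling, -0.016 with no filter, -0.016 with DESeq2, -0.038 with limma-voom and -0.024 with the replicate block, and ranged from -0.13 to 0.12 with 1 library left out; Col24a1 was at -0.16 with limma-voom. With 1 library left out, Col11a2 ranged from -0.091 to 0.34, Col27a1 from -0.11 to 0.81 and P4ha1 from -0.20 to 0.10. Unless fewer genes or libraries entered, the cause was not tested.

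Replicate numbers are shared by the groups, but same-numbered libraries correlated in their deviations by 0.440, 0.0419, 0.0376, 0.0339, 0.167 and 0.0527, so the numbers were not taken as pairs. For 2 of the 6 Control libraries, the same-numbered iTgMir483 library was the best match. With the replicate block, 8 collagen genes were higher and 0 lower, 7 of them shared with the fit without it (Col3a1 gained, adjusted p = 0.0492, and Col5a2 lost, adjusted p = 0.0579, edgeR), and 9 pathway genes were higher and 2 lower. For genes with few counts per library, a change may not be detectable at this depth.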
